A study of Mus musculus with 24 samples.

Results

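Messenger RNA of 10 regulators and effectors of mTOR complex 1 was followed in mouse gastrocnemius: Ddit4, Ddit4l, Sesn1, Sesn2, Sesn3, Tsc1, Tsc2, Deptor, Eif4ebp1 and Rps6kb1. They were chosen by gene name and taken from the 36172 gene models of the deposited tables, and 10 of 10 passed the filter on low counts together with the rest of the 13048 genes tested. The list was drawn up with the measured expression changes of these same libraries in view, and no record says which comparison it was selected on. Every treatment comparison therefore counts as used, and the numbers of members that changed are given as a description. All mice were C57BL/6 and carried floxed Notch2 alleles in both copies. Notch2-mKO mice (genotype Mlc1fCre/+;Notch2f/f) carried in addition a Cre allele at the gene for myosin light chain 1f, a protein of skeletal muscle fibres, so that other cell types of the tissue keep Notch2, and WT mice (Notch2f/f) had no Cre. Each genotype was sampled after hindlimb suspension for 7 days (Unloading), at 14 days after 1 intraperitoneal dose of 150 mg/kg streptozotocin, a toxin of the insulin-producing beta cells (Diabetes), and without either (Control). There were 4 libraries in each of the 6 groups, 24 in all, and the same controls served both treatments of a genotype. Neither age nor sex of the mice is given in the labels.

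mTOR complex 1 is a kinase that raises protein synthesis when insulin, growth factors, amino acids and mechanical load are sufficient. The TSC complex, built on Tsc1 and Tsc2, holds it back by switching off the GTPase Rheb. Ddit4 (also called REDD1) and its paralog Ddit4l (REDD2) act through TSC, and the sestrins act on GATOR2, which relays amino acid supply to the Rag GTPases at the lysosome. Deptor binds the kinase itself. Eif4ebp1 (4E-BP1, a translation repressor that the kinase inactivates) and Rps6kb1 (S6 kinase 1, which it activates) are its best known substrates. In muscle, Ddit4 is known as a gene that glucocorticoids, hypoxia and energy stress induce, Sesn1 as a target of FOXO factors and p53, and Eif4ebp1 as a target of ATF4. All of these act on, or are acted on by, protein phosphorylation, which RNA levels do not report.

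The sequences of the Ddit4, Ddit4l and Sesn1 promoters are shown because the REDD paralogs behaved differently and because Sesn1 was the sestrin that changed. Each runs from 250 bases before to 50 bases after the RefSeq start (build GRCm38.p6), 5′ to 3′ on the strand of the gene, and capitals mark a match to 1 of 5 short motifs on either strand: AGAACA (glucocorticoid receptor half-site), GTAAACA (FOXO site), ACGTG (hypoxia response core), CACGTG (E-box, which contains ACGTG) and TGACG (CRE half-site). Ddit4 is on the minus strand at chr10:59951721-59952020, Ddit4l on the plus strand at chr3:137623422-137623721, and Sesn1 has 2 annotated starts on the plus strand, at chr10:41810324-41810623 and chr10:41887189-41887488.
Ddit4: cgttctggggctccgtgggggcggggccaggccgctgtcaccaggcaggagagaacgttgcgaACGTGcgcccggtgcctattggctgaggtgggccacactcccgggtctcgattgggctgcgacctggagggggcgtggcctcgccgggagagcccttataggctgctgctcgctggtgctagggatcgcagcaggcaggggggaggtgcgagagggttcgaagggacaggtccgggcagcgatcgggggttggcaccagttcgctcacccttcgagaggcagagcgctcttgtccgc
Ddit4l: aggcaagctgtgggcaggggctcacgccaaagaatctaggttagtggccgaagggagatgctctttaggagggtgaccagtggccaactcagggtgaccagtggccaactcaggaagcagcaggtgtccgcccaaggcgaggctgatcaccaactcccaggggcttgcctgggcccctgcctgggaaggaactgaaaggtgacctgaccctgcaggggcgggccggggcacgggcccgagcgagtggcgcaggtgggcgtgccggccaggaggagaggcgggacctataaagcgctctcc
Sesn1 start site 1: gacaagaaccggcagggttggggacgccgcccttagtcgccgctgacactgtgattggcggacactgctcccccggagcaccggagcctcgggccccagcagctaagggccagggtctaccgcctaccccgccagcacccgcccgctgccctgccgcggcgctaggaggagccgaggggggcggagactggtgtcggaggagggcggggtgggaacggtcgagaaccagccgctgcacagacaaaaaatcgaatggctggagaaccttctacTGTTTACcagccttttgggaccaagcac
Sesn1 start site 2: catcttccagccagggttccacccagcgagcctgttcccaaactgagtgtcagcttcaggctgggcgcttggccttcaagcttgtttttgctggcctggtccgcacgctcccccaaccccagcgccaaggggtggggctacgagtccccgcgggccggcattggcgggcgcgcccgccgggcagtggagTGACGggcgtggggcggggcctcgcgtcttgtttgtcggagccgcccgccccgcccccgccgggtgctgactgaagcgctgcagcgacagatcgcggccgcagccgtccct
Ddit4 held ACGTG at 187 bases before the start, a motif present in 19.6% of 32851 promoters of this length. Sesn1 held the FOXO letters 23 bases after its first start (3.65% of promoters) and TGACG 61 bases before its second (20.8%). None of the 5 was found in the Ddit4l, Sesn2, Sesn3 or Tsc2 window. Tsc1 held TGACG at 139 bases and Rps6kb1 held AGAACA at 105 bases before the start, the last a motif of 18.97% of promoters. Eif4ebp1 and Deptor had no promoter entry and were not searched. A match describes letters in this window and not binding.

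Library totals ran between 33112459 and 56369917 estimated counts, and the lowest member count in any library was 46.6, for Sesn2. Values below are CPM, the count relative to a library size scaled by trimmed mean of M values, and a call means an adjusted p below 0.05 in edgeR's quasi-likelihood test over all 13048 genes. Notch2 itself was low, at 1.15 to 3.18 CPM over the 24 libraries, was called in no comparison and so does not check the genotype labels. Markers of muscle fibres summed to between 122850 and 286260 CPM. AT-rich genes (transcript GC content below 42%, 1298 genes) stood relative to GC-rich genes (above 56%, 2619 genes) at 0.35 ± 0.06 log2 units in WT-Unloading, 0.32 ± 0.13 in WT-Diabetes and -0.54 ± 0.28 in WT-Control (SD, n = 4 each), and at 0.02 ± 0.19, 0.11 ± 0.12 and -0.26 ± 0.22 in the same 3 groups of Notch2-mKO mice. This shift moved with treatment, most in WT mice, and fold changes with each library's trend in GC content and length removed are given beside the calls it changes. The labels do not say that the libraries come from separate animals, so p-values measure the spread between these libraries. In whole tissue, fewer cells of a type and less RNA per cell cannot be told apart.

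**Figure D1:**
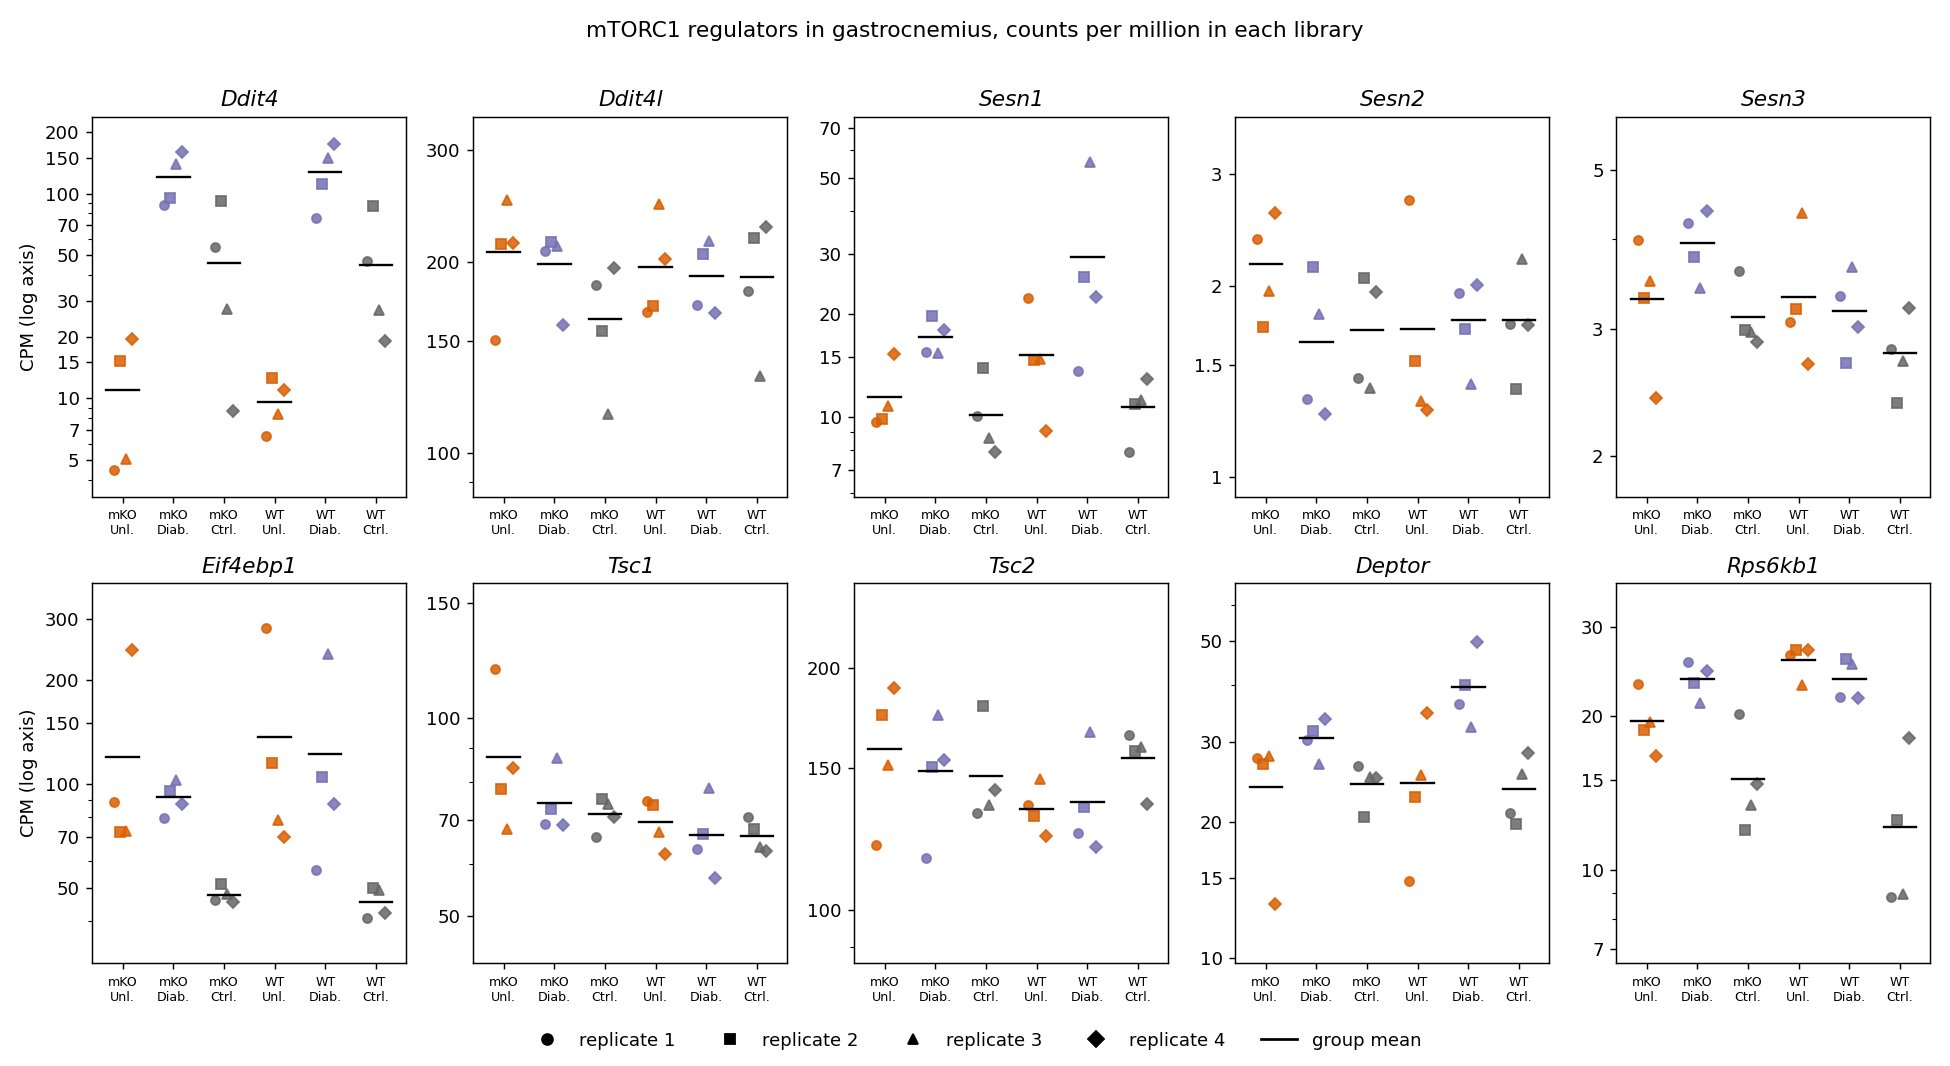
CPM of the 10 members in each of the 24 libraries on log axes, with 1 panel per gene, marker shapes for replicates 1 to 4 and a black line at each group mean. Ddit4 lies between 4.47 and 19.5 CPM in the 8 unloaded libraries, between 75.8 and 175 CPM in the 8 diabetic libraries and between 8.64 and 91.7 CPM in the 8 controls.

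Ddit4 was the member that moved most, and it moved in opposite directions: lower after unloading and higher in diabetes. It had 4.47, 15.2, 5.04 and 19.5 CPM in Notch2-mKO-Unloading, against 54.6, 91.7, 27.3 and 8.64 CPM in Notch2-mKO-Control. In WT mice it had 6.55, 12.6, 8.37 and 10.99 CPM in WT-Unloading, against 46.8, 86.5, 27.1 and 19.02 CPM in WT-Control. Every WT-Unloading library was below every WT-Control library, while in Notch2-mKO mice control replicate 4 lay inside the unloaded range. Ddit4 fell by 2.05 ± 0.54 on the log2 scale in Notch2-mKO-Unloading (SE, adjusted p = 0.0246) and by 2.22 ± 0.54 in WT-Unloading (adjusted p = 0.00260), 4.13-fold and 4.67-fold lower. Of the 13048 genes, 26 had a lower fold change in Notch2-mKO mice and 44 in WT mice. Removing the trend in GC content and length gave -1.99 and -1.88, both called. Leaving out 1 library ended the Notch2-mKO call for control replicate 2 (-1.47, adjusted p = 0.109), unloaded replicate 1 (-1.79, adjusted p = 0.0652) and unloaded replicate 3 (-1.81, adjusted p = 0.0525).

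In diabetes Ddit4 had 87.5, 94.9, 139 and 160 CPM in Notch2-mKO-Diabetes and 75.8, 111, 150 and 175 CPM in WT-Diabetes. Both groups stood above the means of their controls, 45.6 ± 36.1 and 44.9 ± 30.1 CPM (SD, n = 4 each), but each overlapped control replicate 2 of its genotype. The fold change was 1.51 ± 0.52 in WT-Diabetes (adjusted p = 0.0282) and 1.40 ± 0.52 in Notch2-mKO-Diabetes, which was not called (adjusted p = 0.109), although only 92 of 13048 genes had a higher value in that comparison. Without the trend in GC content and length these values were 1.87 (adjusted p = 0.0116) and 1.53 (adjusted p = 0.0897). The WT call lay near the threshold, and the value stayed between 1.26 and 2.05 when any 1 library was left out. The call was lost without control replicate 1 (1.53, adjusted p = 0.0581), control replicate 3 (1.33, adjusted p = 0.0901), control replicate 4 (1.26, adjusted p = 0.0823), diabetic replicate 3 (1.43, adjusted p = 0.0623) or diabetic replicate 4 (1.32, adjusted p = 0.0732).

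Ddit4 varied widely among the control libraries. It differed 10.6-fold between the highest and lowest Notch2-mKO-Control library and 4.55-fold among WT-Control libraries, against 4.36-fold and 1.92-fold among the unloaded and 1.83-fold and 2.31-fold among the diabetic libraries of the same genotypes. In both control groups replicate 2 was highest, then replicate 1, replicate 3 and replicate 4. The labels do not say whether equal numbers mark mice handled together.

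Set directly against each other, the treated groups did not overlap in either genotype. This comparison was added after the values had been seen. Diabetic over unloaded muscle, Ddit4 was 3.45 ± 0.57 log2 units higher in Notch2-mKO mice (adjusted p = 0.00104) and 3.73 ± 0.58 in WT mice (adjusted p = 5.55e-04), 10.9-fold and 13.3-fold, and 4 genes of 13048 had a higher fold change in each genotype. It was the only member called there, beside 3.07% of all genes in Notch2-mKO mice and 3.56% in WT mice. Leaving out any 1 of the libraries kept Ddit4 called in both genotypes.

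The paralog Ddit4l showed no such swing. Its means were 207 ± 41.2 CPM in Notch2-mKO-Unloading, 198 ± 26.5 in Notch2-mKO-Diabetes and 162 ± 35.5 in Notch2-mKO-Control, and 196 ± 36.9 CPM in WT-Unloading, 190 ± 24.7 in WT-Diabetes and 189 ± 43.0 in WT-Control (SD, n = 4 each). Its 4 treatment fold changes lay between 0.00 and 0.35 and none was called. The interval of 2 SE around the WT values ran from -0.31 to 0.41 after unloading and from -0.36 to 0.36 in diabetes, so a change as large as that of Ddit4 lay outside it. Per kilobase of transcript, Ddit4 made up 7.43 ± 4.45% of the sum of both genes in Notch2-mKO-Unloading, 47.9 ± 10.02% in Notch2-mKO-Diabetes and 28.1 ± 17.0% in Notch2-mKO-Control. The corresponding shares were 7.21 ± 2.37% in WT-Unloading, 50.1 ± 9.20% in WT-Diabetes and 25.6 ± 11.1% in WT-Control. By mean share the REDD transcripts were thus mostly Ddit4l in control muscle and more so in unloaded muscle. Those of diabetic muscle were close to an equal mix, with Ddit4 at 39.5% to 61.0% in single Notch2-mKO-Diabetes libraries and 40.8% to 62.1% in WT-Diabetes libraries.

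Among the sestrins, Sesn1 was the most abundant per kilobase in every group, at a mean of between 74.8% and 87.6% of the family sum, and the one that changed. It had 15.4, 19.7, 15.4 and 18.0 CPM in Notch2-mKO-Diabetes, against 10.1, 13.9, 8.70 and 7.89 CPM in Notch2-mKO-Control. In WT mice it had 13.6, 25.6, 55.7 and 22.3 CPM in WT-Diabetes, against 7.89, 10.9, 11.2 and 12.9 CPM in WT-Control. No diabetic library overlapped its controls in either genotype. The fold change was 1.45 ± 0.30 in WT-Diabetes (adjusted p = 7.23e-04) and 0.76 ± 0.30 in Notch2-mKO-Diabetes (adjusted p = 0.131, not called). In WT mice the value was 1.45 with the GC and length trend removed. Without WT-Diabetes replicate 3, at 55.7 CPM, it was 0.94 and still called (adjusted p = 0.00695), and the call held without any other 1 library. After unloading Sesn1 had 9.66, 9.84, 10.8 and 15.3 CPM in Notch2-mKO mice and 22.3, 14.6, 14.7 and 9.09 CPM in WT mice, which overlapped the controls (0.17 and 0.51, adjusted p = 0.778 and 0.198).

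Sesn2, known as the stress-induced sestrin and a target of ATF4 and p53, ranged between 1.26 and 2.74 CPM over the 24 libraries, with 46.6 to 129 counts per library. Sesn3, a FOXO target in mouse liver, ranged between 2.37 and 4.38 CPM, and its highest group mean was 3.95 ± 0.43 CPM in Notch2-mKO-Diabetes against 3.12 ± 0.34 CPM in Notch2-mKO-Control (0.34 ± 0.17, adjusted p = 0.249). Neither was called in any of the 4 treatment comparisons, and their fold changes lay between -0.06 and 0.35.

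Neither Tsc1 nor Tsc2 was called in any treatment comparison. Tsc1 (hamartin) ranged between 57.1 and 119 CPM and Tsc2 (tuberin, the subunit that acts on Rheb) between 116 and 188 CPM. The highest Tsc1 value, 119 CPM, was 1 library, Notch2-mKO-Unloading replicate 1, with the others of that group at 67.8 to 83.8 CPM. Tsc1 was 0.29 ± 0.13 log2 units higher in Notch2-mKO-Unloading than in Notch2-mKO-Control (adjusted p = 0.174), and the remaining TSC values lay between -0.21 and 0.11. Intervals of 2 SE around all 8 of these values stayed within -0.49 and 0.55. Tsc2 shares 693 exon bases with Pkd1 on the opposite strand, and the sources used here do not say whether counting used strand.

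Deptor, the inhibitor bound to the mTOR kinase, was higher in diabetes in WT mice. It had 36.4, 40.1, 32.4 and 49.7 CPM in WT-Diabetes, against 20.9, 19.8, 25.4 and 28.4 CPM in WT-Control, with no overlap. The smaller rise in Notch2-mKO-Diabetes, 30.2, 31.7, 26.7 and 33.6 CPM against 26.5, 20.5, 25.0 and 24.9 CPM in Notch2-mKO-Control, also had no overlap but was not called. The fold changes were 0.75 ± 0.21 (adjusted p = 0.00873) and 0.34 ± 0.21 (adjusted p = 0.367). Deptor transcripts have a GC content of 44.3%, and without the trend in GC content and length the WT value was 0.34 and no longer called (adjusted p = 0.258). Deptor shares 303 exon bases with Gm9920 on the opposite strand. After unloading Deptor averaged 23.9 ± 7.18 CPM in Notch2-mKO mice and 24.3 ± 8.22 CPM in WT mice, and both groups overlapped their controls, with 1 library each below every control, at 13.1 and 14.8 CPM (-0.02 and 0.04, adjusted p = 0.968 and 0.898).

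Eif4ebp1 was higher in every treated library than in every control library of its genotype. The controls were tight, at 46.2, 51.4, 47.9 and 45.5 CPM in Notch2-mKO-Control and 40.9, 50.1, 49.2 and 42.2 CPM in WT-Control. Unloaded libraries had 88.6, 72.6, 73.0 and 244 CPM in Notch2-mKO mice and 282, 115, 78.9 and 70.1 CPM in WT mice. Diabetic libraries had 79.4, 95.5, 103 and 87.8 CPM in Notch2-mKO mice and 56.3, 105, 239 and 87.6 CPM in WT mice. In 3 of the 4 treated groups 1 library stood more than 2-fold above the next. The fold change was 1.32 ± 0.41 in Notch2-mKO-Unloading (adjusted p = 0.0470), 1.58 ± 0.41 in WT-Unloading (adjusted p = 0.00407), 0.94 ± 0.40 in Notch2-mKO-Diabetes (adjusted p = 0.167, not called) and 1.42 ± 0.41 in WT-Diabetes (adjusted p = 0.00930). Taking out the trend in GC content and length ended the Notch2-mKO-Unloading call (1.3, adjusted p = 0.0535) and left the WT values at 1.56 and 1.45, both called. Without its highest library the value was 0.70 in Notch2-mKO-Unloading (replicate 4, adjusted p = 0.269), 0.95 in WT-Unloading (replicate 1, adjusted p = 0.0521) and 0.86 in WT-Diabetes (replicate 3, adjusted p = 0.0965), none of them called. The Notch2-mKO-Unloading call was also lost without any 1 of the 4 controls (1.29 to 1.34) or without unloaded replicate 1 (1.44), adjusted p up to 0.105.

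Rps6kb1 was higher in 3 of the 4 treated groups. It had 23.2, 18.8, 19.5 and 16.7 CPM in Notch2-mKO-Unloading and 25.6, 23.3, 21.2 and 24.6 CPM in Notch2-mKO-Diabetes, against 20.2, 11.9, 13.4 and 14.7 CPM in Notch2-mKO-Control. WT mice had 26.4, 27.0, 23.0 and 27.0 CPM in WT-Unloading and 21.8, 26.0, 25.4 and 21.7 CPM in WT-Diabetes, against 8.85, 12.5, 8.97 and 18.1 CPM in WT-Control. Only the unloaded Notch2-mKO group overlapped its controls. The fold changes were 0.38 ± 0.18 in Notch2-mKO-Unloading (adjusted p = 0.187), 1.09 ± 0.18 in WT-Unloading (adjusted p = 5.75e-05), 0.65 ± 0.18 in Notch2-mKO-Diabetes (adjusted p = 0.0335) and 0.97 ± 0.18 in WT-Diabetes (adjusted p = 2.37e-04). Rps6kb1 has the lowest transcript GC content of the members, 39.2%, and the control libraries with the highest AT-rich index, -0.15 for WT-Control replicate 4 and 0.04 for Notch2-mKO-Control replicate 1, were also those with the highest Rps6kb1 of their groups. With the GC and length trend removed its value was 0.14 in Notch2-mKO-Unloading, 0.30 in WT-Unloading (adjusted p = 0.0211, called), 0.30 in Notch2-mKO-Diabetes (adjusted p = 0.0662) and 0.15 in WT-Diabetes (adjusted p = 0.258). The Notch2-mKO-Diabetes call was lost without any 1 library other than Notch2-mKO-Control replicate 1, with values between 0.55 and 0.70. Rps6kb1 shares 155 exon bases with Rnft1 on the opposite strand.

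**Figure D2:**
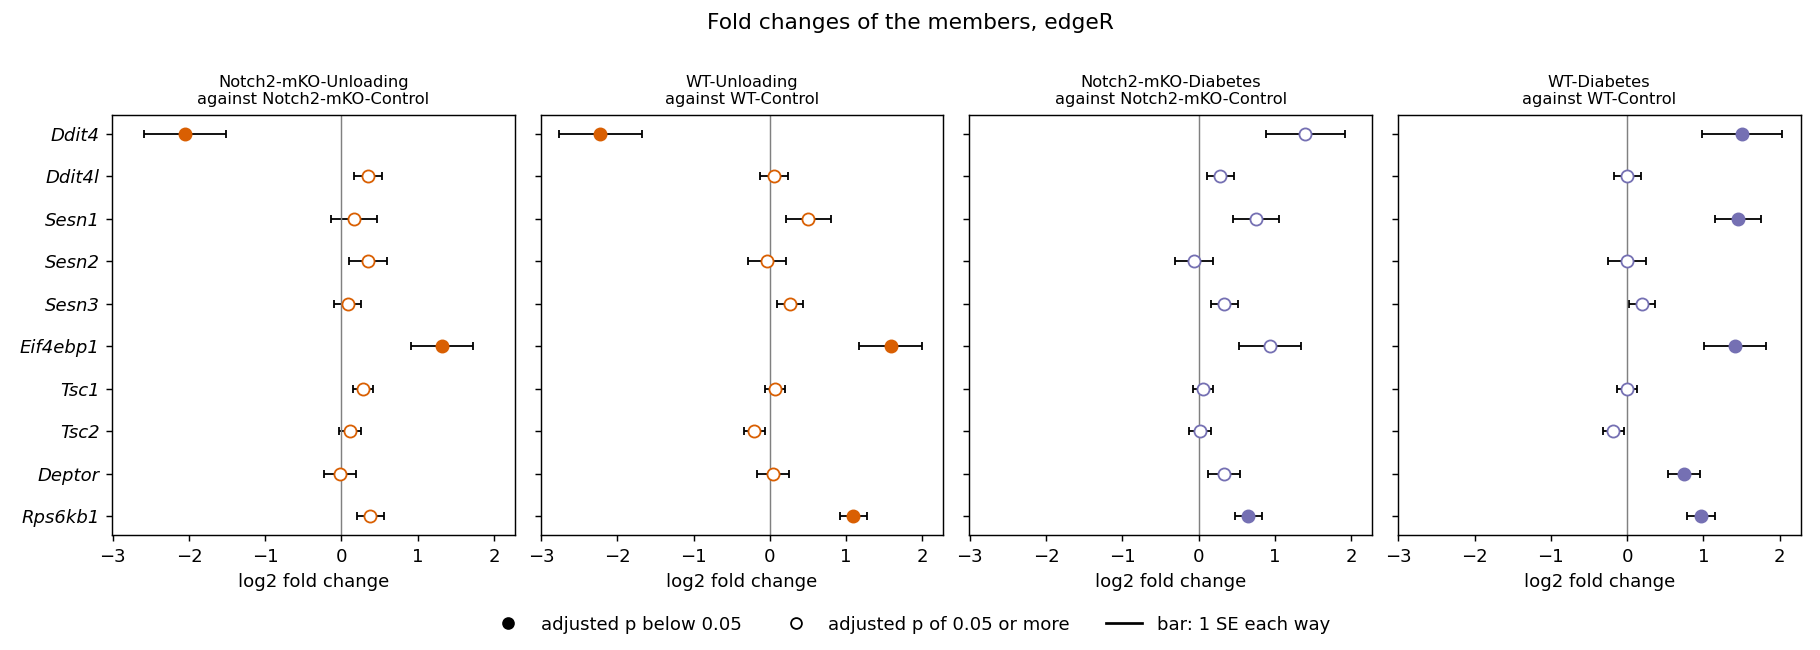
Log2 fold change of each member, treated over control, in the 4 treatment comparisons, with bars of 1 SE each way and filled points for adjusted p below 0.05. Ddit4 lies left of 0 in the unloading panels and right of it in the diabetes panels, while Eif4ebp1 lies right of 0 in all 4.

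Counted over the 10 members, 1 was called higher and 1 lower in Notch2-mKO-Unloading, where 7.31% of all genes were called, 4.11% higher and 3.2% lower. In WT-Unloading 2 were higher and 1 lower, where 34.7% of all genes were called, 18.4% higher and 16.3% lower. In Notch2-mKO-Diabetes 1 was higher and 0 lower, beside 5.59% of all genes, 3.05% higher and 2.54% lower. In WT-Diabetes 5 were higher and 0 lower, beside 33.4% of all genes, 17.8% higher and 15.5% lower. Groups without overlap were found for 1 member, higher, in Notch2-mKO-Unloading (6.41% of all genes), 2 higher (17.3%) and 1 lower (16%) in WT-Unloading, 4 higher in Notch2-mKO-Diabetes (8.65%) and 4 higher in WT-Diabetes (15.9%). The members' median fold change was 0.23, 0.06, 0.34 and 0.47 in this order, against 0.02, -0.02, -0.01 and -0.01 over all genes. The count of 3 of 10 in WT-Unloading is near the background. Since these comparisons may have been used to draw up the list, nothing is read from the counts.

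**Figure D3:**
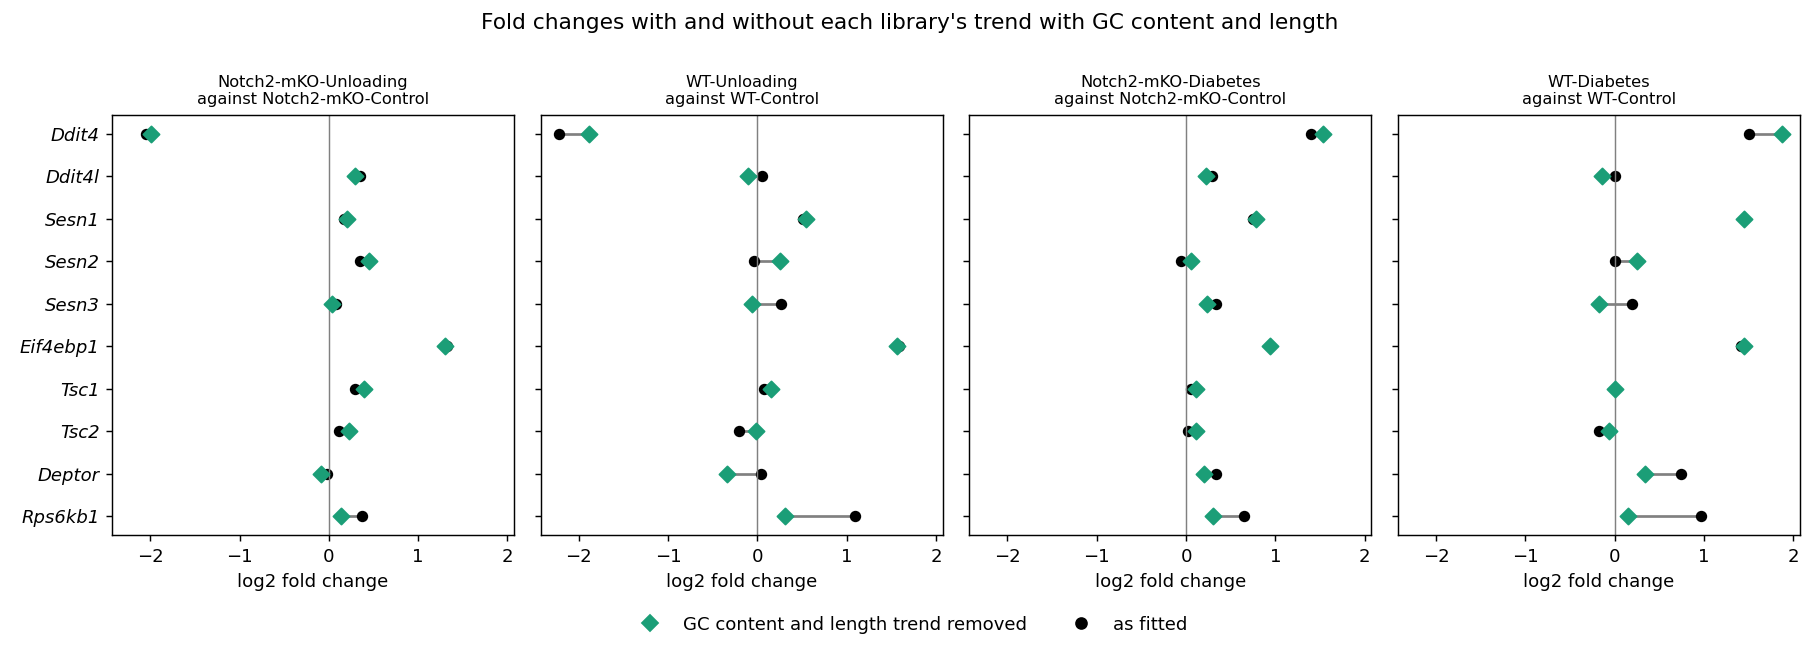
Log2 fold change of each member in the 4 treatment comparisons as fitted (black circles) and with each library's trend in GC content and transcript length removed (green diamonds). Rps6kb1 moves from 1.09 to 0.30 in the WT unloading panel and from 0.97 to 0.15 in the WT diabetes panel, while Ddit4, Sesn1 and Eif4ebp1 stay on the same side of 0 in all 4.

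Between genotypes no member was called in any of the 3 conditions, and no member's response to treatment was called as different between Notch2-mKO and WT mice. At an unadjusted p below 0.05 there were 2 members after unloading (Tsc1 and Rps6kb1), 1 in diabetes (Sesn1) and 1 for the unloading response (Rps6kb1), and leaving out WT-Control replicate 4 gave 1 call for the unloading response. The closest was the unloading response of Rps6kb1, 0.72 ± 0.25 log2 units smaller in Notch2-mKO mice (coded as -0.72, edgeR adjusted p = 0.203), which was -0.17 with the GC and length trend removed. Sesn1 was 17.1 ± 2.11 CPM in Notch2-mKO-Diabetes and 29.3 ± 18.3 CPM in WT-Diabetes (-0.78 ± 0.30, edgeR adjusted p = 0.872), and these groups overlapped. For Ddit4 the response differed by 0.18 ± 0.74 after unloading and by -0.11 ± 0.72 in diabetes, intervals of 2 SE that reach from -1.302 to 1.66 and from -1.56 to 1.34, so a difference of 1 log2 unit between genotypes could not be told from 0. edgeR called 0% of all genes in these 5 comparisons. At an unadjusted p below 0.05 there were 695 genes in controls, 1345 after unloading, 692 in diabetes, and 1875 and 1142 for the differences in response. DESeq2 called 1, 5, 0, 127 and 2 genes in the same order, with no member among them.

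Within the treated groups several members moved together from library to library. The library with the highest Eif4ebp1 of its group was Notch2-mKO-Unloading replicate 4, Notch2-mKO-Diabetes replicate 3, WT-Unloading replicate 1 and WT-Diabetes replicate 3. All 4 had the lowest Deptor of their group, 13.1, 26.7, 14.8 and 32.4 CPM in this order. Sesn1 was highest of its group in 3 of them, at 15.3 CPM, 22.3 CPM and 55.7 CPM, the exception being the diabetic Notch2-mKO library at 15.4 CPM, the lowest of its group. The same 4 libraries had the highest Fbxo32 of their groups (atrogin-1, a muscle ubiquitin ligase and FOXO target), at 1234, 529, 1047 and 1216 CPM, against control means of 163 ± 37.5 CPM in Notch2-mKO mice and 112 ± 47.0 CPM in WT mice (SD, n = 4 each). This pattern was noticed after the values had been seen and carries no test. Ddit4 had no common place in it: among unloaded libraries it was highest in the same Notch2-mKO library, at 19.5 CPM, and lowest in the same WT library, at 6.55 CPM.

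**Figure D4:**
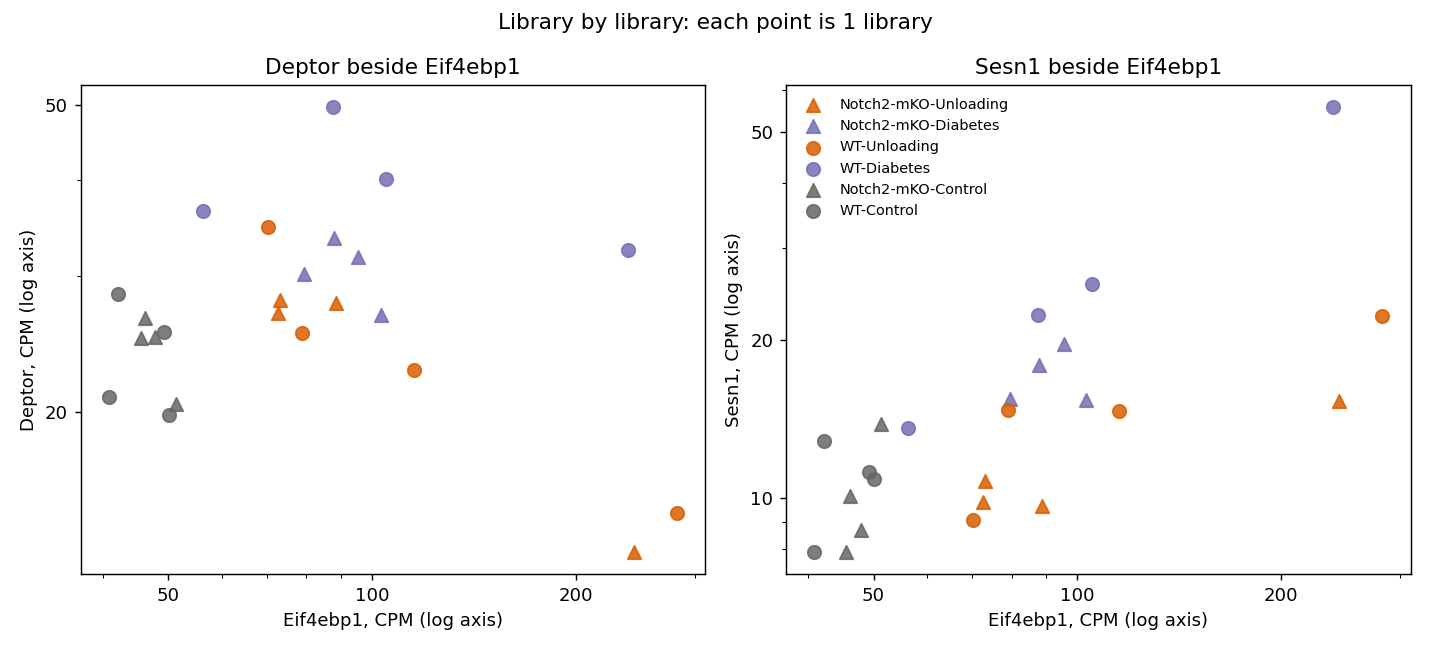
Deptor (left) and Sesn1 (right) against Eif4ebp1, all in CPM on log axes, with 1 point per library, triangles for Notch2-mKO and circles for WT mice. The 2 unloaded libraries with the highest Eif4ebp1, 244 and 282 CPM, have the lowest Deptor of all 24, at 13.1 and 14.8 CPM.

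The genes whose log2 CPM ran most like a member over the 24 libraries were looked for among 9435 genes of at least 2 CPM on average. These correlations share libraries, depth and group differences and carry no p. For Ddit4 they were Phf15 (a PHD finger protein, r = 0.93, rho = 0.89), Nfkbia (the NF-kappaB inhibitor, r = 0.92, rho = 0.90), Bcl2l1 (an anti-apoptotic Bcl-2 family member, r = 0.91, rho = 0.88) and Rhob (a small GTPase, r = 0.90, rho = 0.85). Nfkbia averaged 14.7 ± 4.70 CPM in Notch2-mKO-Unloading, 27.96 ± 2.26 in Notch2-mKO-Diabetes and 16.9 ± 4.60 in Notch2-mKO-Control, and 14.2 ± 1.40 CPM in WT-Unloading, 30.6 ± 4.62 in WT-Diabetes and 21.5 ± 7.17 in WT-Control (SD, n = 4 each), a narrower range than that of Ddit4. For Sesn1 they were Pik3r1 (regulatory subunit of PI3 kinase, r = 0.90, rho = 0.88), Mll1 (a histone methyltransferase, r = 0.88, rho = 0.81), Ctsl (the lysosomal protease cathepsin L, r = 0.87, rho = 0.85) and Insr (the insulin receptor, r = 0.87, rho = 0.78). For Eif4ebp1 they were Eif2b1 (a subunit of the eIF2B exchange factor, r = 0.96, rho = 0.93), Bnip3 (a mitophagy receptor, r = 0.96, rho = 0.95), Ddx21 (a nucleolar RNA helicase, r = 0.95, rho = 0.91) and Naa25 (a subunit of an N-terminal acetyltransferase, r = 0.95, rho = 0.90). After group means were subtracted r was 0.66 to 0.81 for the Ddit4 genes, 0.74 to 0.84 for the Sesn1 genes and 0.93 to 0.95 for the Eif4ebp1 genes. The last pattern thus also runs within groups, for genes picked by their r over the same libraries. How far the libraries with the highest Eif4ebp1 carry it was not tested, and r between group means was not examined.

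The rest of the pathway was followed on 10 lists of 145 genes, of which 141 were tested. Called genes numbered 12 higher and 2 lower in Notch2-mKO-Unloading, 38 higher and 17 lower in WT-Unloading, 10 higher and 1 lower in Notch2-mKO-Diabetes, and 43 higher and 16 lower in WT-Diabetes. The shares of all genes called, given above for each direction, are the background for these and for the counts of each list below. Of 11 core genes of mTORC1 and mTORC2, 0 were higher and 3 lower in WT-Unloading and 0 higher and 4 lower in WT-Diabetes. Rptor, the substrate-binding subunit of mTORC1, was 29.0 ± 2.51 CPM in WT-Unloading and 27.4 ± 3.73 CPM in WT-Diabetes against 38.5 ± 3.69 CPM in WT-Control (-0.41 and -0.49, adjusted p = 0.00843 and 0.00221). Tti1, which helps assemble the complexes, was at -0.35 and -0.28 and Prr5, an mTORC2 subunit, at -0.48 and -0.72, all 4 called. Mtor was at 0.02 and 0.07 and not called. With the trend removed 1 core gene was higher and 1 lower in WT-Unloading, and 1 higher and 0 lower in WT-Diabetes. Rptor was then at -0.19 and -0.34 and Prr5 at -0.10 and -0.35, none of them called, and Tti1 was called after unloading only. Akt1s1 (PRAS40, an mTORC1 inhibitor) was the only core gene called in Notch2-mKO mice as fitted, higher after unloading at 0.33 (adjusted p = 0.0355). In WT-Unloading and WT-Diabetes it was at 0.05 and 0.002 and not called. With the trend removed Akt1s1 was called higher in all of these, at 0.39 in Notch2-mKO-Unloading, 0.43 in WT-Unloading and 0.38 in WT-Diabetes (adjusted p = 0.0157, 0.00152 and 0.00473). In Notch2-mKO-Diabetes 1 core gene was then higher and 0 lower.

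Between the TSC complex and the kinase, 4 of 14 genes of the Rheb, Rag and lysosomal scaffold list were higher and 3 lower in each WT comparison, and 0 were called in Notch2-mKO mice. With the trend removed 4 were higher and 1 lower in WT-Unloading, and 5 higher and 1 lower in WT-Diabetes. Fnip1, a partner of folliculin, was 36.8 ± 5.69 CPM in WT-Unloading and 39.9 ± 8.002 CPM in WT-Diabetes against 13.4 ± 5.80 CPM in WT-Control (1.45 and 1.57, or 0.65 and 0.76 with the trend removed, all called). Rragd, a Rag GTPase, was higher at 0.67 and 0.59, and Tbc1d7, the third subunit of the TSC complex, lower at -0.61 and -0.69, and all 4 kept their call with the trend removed. Of 15 GATOR and amino acid sensor genes, 4 were higher and 4 lower in WT-Unloading and 3 higher and 4 lower in WT-Diabetes, which became 2 and 2, and 0 and 1, with the trend removed.

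Downstream, 7 of 16 effector genes were higher and 0 lower in WT-Unloading, and 4 were higher and 1 lower in WT-Diabetes, with none called in Notch2-mKO mice. Without the trend these were 6 and 1 in WT-Unloading and 7 and 1 in WT-Diabetes, with 2 higher in Notch2-mKO-Unloading and 1 in Notch2-mKO-Diabetes. Eif4b, an eIF4A cofactor and S6 kinase substrate, was 624 ± 61.7 CPM in WT-Unloading and 473 ± 99.5 CPM in WT-Diabetes against 334 ± 47.1 CPM in WT-Control (0.90 and 0.50, adjusted p = 9.47e-04 and 0.0487). Larp1, which binds ribosomal protein mRNAs, was higher at 0.41 and 0.45, and Pdcd4, an eIF4A inhibitor that S6 kinase marks for degradation, at 0.62 and 0.91, of which the unloading call of Pdcd4 was lost without the trend (0.20). Rps6kb2, the second S6 kinase, was lower in WT-Diabetes at -0.40 (adjusted p = 0.0145), and at -0.23 without the trend, no longer called (adjusted p = 0.207). Upstream, 6 of 16 Akt and AMPK genes were higher and 2 lower in WT-Unloading and 6 higher and 3 lower in WT-Diabetes, or 6 and 1, and 5 and 4, without the trend. Prkab2, an AMPK subunit, was higher at 1.20 and 0.87, and Prkag2, another, lower at -0.50 and -1.10 in WT mice and at -0.69 in Notch2-mKO-Diabetes.

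**Figure D5:**
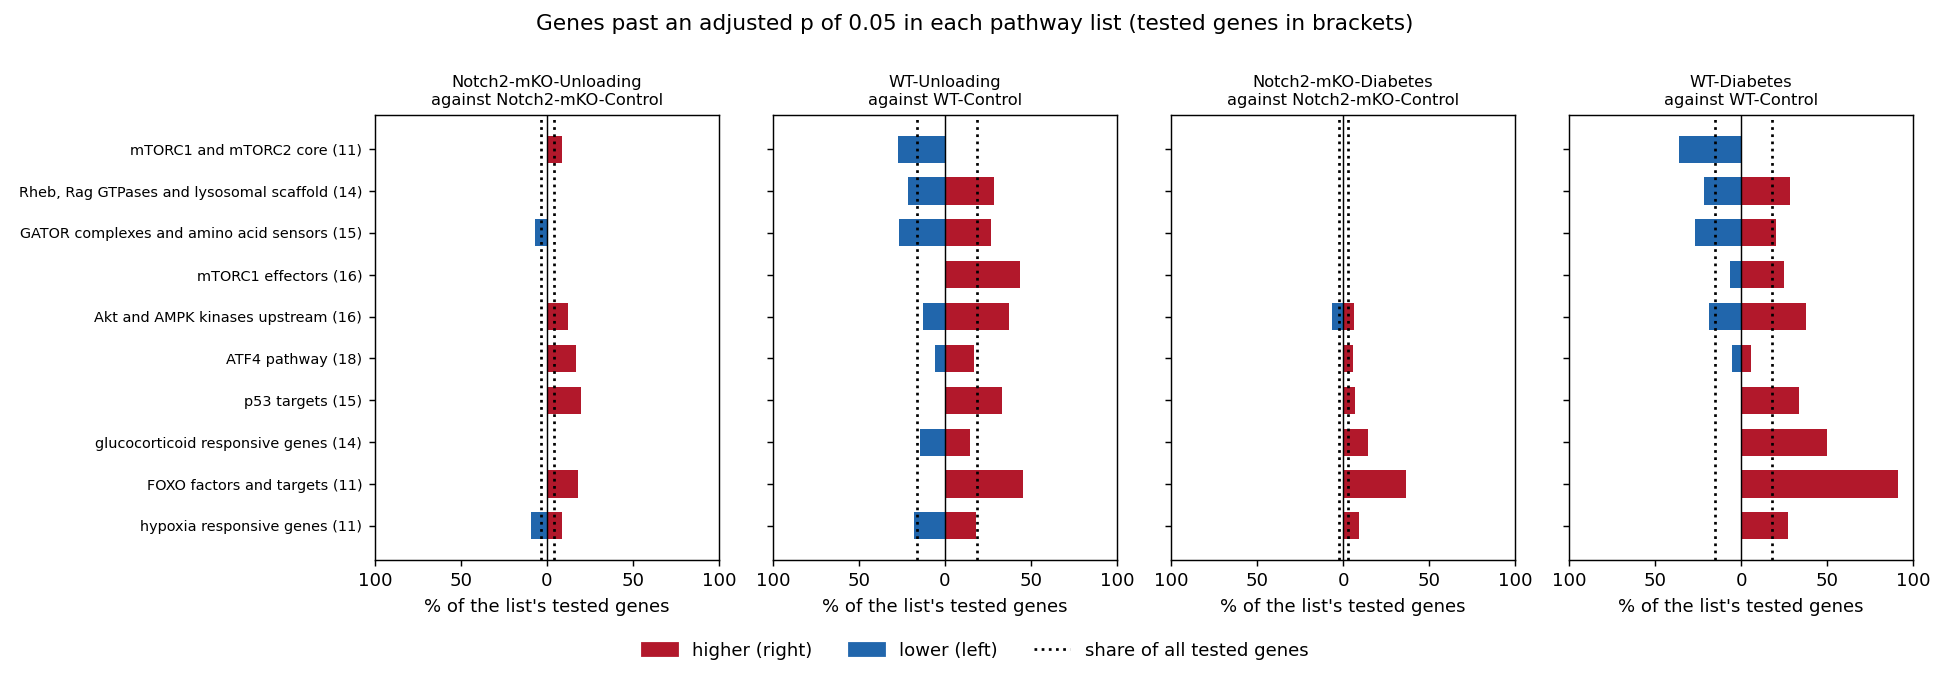
Share of each pathway list's tested genes that were called higher (red, right) or lower (blue, left) in the 4 treatment comparisons, with dotted lines at the share of all tested genes. The FOXO list reaches furthest right in both diabetes panels, with 4 of 11 genes in Notch2-mKO mice and 10 of 11 in WT mice.

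Lists of genes that respond to the known inducers of these members were counted in the same way, with no test between the treatments. FOXO factors and targets numbered 2 of 11 higher in Notch2-mKO-Unloading, 5 in WT-Unloading, 4 in Notch2-mKO-Diabetes and 10 in WT-Diabetes, with none lower, and 1, 4, 2 and 7 with the trend removed. Pdk4, which curbs glucose oxidation, was 942 ± 169 CPM in Notch2-mKO-Diabetes against 294 ± 165 CPM in Notch2-mKO-Control and 1312 ± 401 CPM in WT-Diabetes against 191 ± 120 CPM in WT-Control (1.68 and 2.78, adjusted p = 0.0401 and 1.78e-04), but was not called after unloading (-0.69 and 0.91). Cdkn1b, a cell cycle inhibitor, was higher at 1.19 in Notch2-mKO-Diabetes and 1.69 in WT-Diabetes, and at 1.3 in WT-Unloading. Foxo4 was higher in all 4 comparisons, at between 0.44 and 1.02.

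Of 14 glucocorticoid responsive genes, 0 were called in Notch2-mKO-Unloading, 2 were higher and 2 lower in WT-Unloading, 2 were higher in Notch2-mKO-Diabetes and 7 were higher in WT-Diabetes, with none lower in diabetes. Cebpd, a transcription factor, was 79.7 ± 23.6 CPM in Notch2-mKO-Diabetes against 22.4 ± 13.7 CPM in Notch2-mKO-Control, and 89.0 ± 55.8 CPM in WT-Diabetes against 30.6 ± 12.6 CPM in WT-Control (1.83 and 1.54, adjusted p = 0.0330 and 0.0177). After unloading it was at -0.16 and -0.48 and not called. Klf15 was higher in WT-Diabetes at 1.03, and Klf9 in both WT comparisons, at 1.34 after unloading and 1.20 in diabetes. Dusp1, a phosphatase, and Sgk1, a kinase, were lower in WT-Unloading at -0.82 and -0.57 (adjusted p = 0.0188 and 0.0497), but neither was called with the trend removed (-0.57 and -0.59, adjusted p = 0.106 and 0.0630). Over the list, removing the trend left 0 higher and 0 lower in Notch2-mKO-Unloading, 1 and 0 in WT-Unloading, 2 and 0 in Notch2-mKO-Diabetes, and 6 and 0 in WT-Diabetes.

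The p53 list held 3 of 15 genes higher in Notch2-mKO-Unloading, 5 in WT-Unloading, 1 in Notch2-mKO-Diabetes and 5 in WT-Diabetes, with none lower. With the trend removed the counts in this order were 3 higher and 1 lower, 6 and 1, 1 and 0, and 5 and 0. Eda2r, a receptor, was 27.7 ± 18.8 CPM in Notch2-mKO-Unloading against 6.48 ± 1.55 CPM in Notch2-mKO-Control and 37.7 ± 28.2 CPM in WT-Unloading against 5.58 ± 1.88 CPM in WT-Control (2.10 and 2.75, adjusted p = 0.0263 and 7.11e-04). Of 18 ATF4 pathway genes, 3 were higher in Notch2-mKO-Unloading, 3 higher and 1 lower in WT-Unloading, 1 higher in Notch2-mKO-Diabetes, and 1 higher and 1 lower in WT-Diabetes. Removing the trend gave 3 higher and 0 lower, 4 and 1, 1 and 0, and 2 and 1 in the same order. Ppp1r15a (GADD34) was higher after unloading in both genotypes, at 1.93 and 1.80, and at 0.18 and 0.55 in diabetes without a call. Of 11 hypoxia responsive genes 1 was higher and 1 lower in Notch2-mKO-Unloading, 2 higher and 2 lower in WT-Unloading, 1 higher in Notch2-mKO-Diabetes and 3 higher in WT-Diabetes. These became 1 and 0, 2 and 1, 0 and 0, and 2 and 0 with the trend removed. Bnip3l was the one called in all 4, at between 0.48 and 0.91, and Vegfa was lower in Notch2-mKO-Unloading at -0.51. Without the trend the calls of Vegfa (-0.46, adjusted p = 0.0530) and of Bnip3l in Notch2-mKO-Diabetes and WT-Diabetes (0.25 and 0.19, adjusted p = 0.164 and 0.169) were lost.

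Markers of other cells moved with treatment as well. Of 7 fibroblast and tendon markers, 3 were lower in Notch2-mKO-Unloading and 4 in each of WT-Unloading, Notch2-mKO-Diabetes and WT-Diabetes, and 1 was higher in each WT comparison. Removing the trend in GC content and length left the same numbers lower and 0 higher. The higher one, Dcn, was then at 0.17 in WT-Unloading and 0.20 in WT-Diabetes. Summed over the 7, levels were 323 to 489 CPM in Notch2-mKO-Unloading, 338 to 410 in Notch2-mKO-Diabetes and 495 to 803 in Notch2-mKO-Control, and 295 to 519 CPM in WT-Unloading, 307 to 432 in WT-Diabetes and 590 to 760 in WT-Control. The 6 endothelial markers summed to 145 to 193 CPM in Notch2-mKO-Unloading and 171 to 230 in Notch2-mKO-Diabetes against 172 to 312 in Notch2-mKO-Control, and to 163 to 197 CPM in WT-Unloading and 182 to 230 in WT-Diabetes against 222 to 290 in WT-Control. Of the 6, 2 were lower in each of Notch2-mKO-Unloading, WT-Unloading and WT-Diabetes, and 0 were called in Notch2-mKO-Diabetes. With the trend removed only the WT-Diabetes count changed, to 1. Neutrophil markers summed to at most 0.55 CPM in every group other than Notch2-mKO-Control, where the highest library had 6.12 CPM. Pericyte and smooth muscle markers had median sums from 58.5 CPM in Notch2-mKO-Unloading to 86.6 CPM in WT-Diabetes. Acta2 of that list was at 0 in all 24 libraries while Myh11, also of smooth muscle, averaged 18.6 ± 0.74 CPM in WT-Control, so the zeros do not show that smooth muscle was absent. Of the 4 tested, 1 was higher and 1 lower in WT-Unloading, 1 higher and 2 lower in WT-Diabetes, and 0 higher and 2 lower in Notch2-mKO-Diabetes. The 8 macrophage markers summed to 48.1 to 73.6 CPM in Notch2-mKO-Unloading and 41.6 to 55.5 CPM in WT-Unloading against 44.2 to 73.4 and 61.3 to 71.4 CPM in their controls. In diabetes the sums were 45.9 to 61.8 CPM in Notch2-mKO mice and 54.5 to 67.8 CPM in WT mice. Of the 8, 0 were higher and 4 lower in WT-Unloading and 2 higher and 1 lower in WT-Diabetes, or 0 and 3, and 1 and 0, with the trend removed. In Notch2-mKO mice 0 macrophage markers were called after either treatment. Erythroid markers, none of which was called, summed to 306 to 1067 CPM in Notch2-mKO-Unloading, 214 to 983 in Notch2-mKO-Diabetes and 224 to 463 in Notch2-mKO-Control, and to 365 to 1089 CPM in WT-Unloading, 305 to 408 in WT-Diabetes and 262 to 548 in WT-Control. With the trend removed 1 erythroid marker was called, higher in WT-Unloading. Muscle fibre markers, of which 3 and 4 of 8 were lower in WT-Unloading and WT-Diabetes, summed to 159200 to 207700 CPM in WT-Unloading and 160700 to 218120 in WT-Diabetes against 234420 to 286260 in WT-Control. In Notch2-mKO mice, with 2 and 1 of 8 lower, they summed to 122850 to 225090 CPM in Notch2-mKO-Unloading and 191430 to 215380 in Notch2-mKO-Diabetes against 221020 to 251410 in Notch2-mKO-Control. Without the trend 2 muscle fibre markers were lower in WT-Unloading and 1 in WT-Diabetes, and still 2 and 1 in the Notch2-mKO groups. The part of the markers of all these cell types in the results for the members was not tested.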

How the data were processed

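Gastrocnemius RNA was sequenced in 24 libraries of 6 groups, and per-gene values were taken from 4 deposited tables. Per the file headers, the authors deposited raw columns of estimated counts per RefSeq gene model beside log2 values of their own normalization, and the submitters' processing notes name the build mm10. Which program aligned or counted the reads: not given in the sources used here. The 8 control columns that occur in 2 tables were identical and were used once. Totals were 33112459 to 56369917 per library.

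Estimated (expected) counts were rounded and filtered with edgeR's expression filter, which left 13048 genes, scaled by trimmed mean of M values, and fitted over all 24 libraries as 6 groups with the quasi-likelihood test (edgeR 4.0.16, limma 3.58.1, R 4.3.3). P-values were adjusted over all genes by Benjamini-Hochberg with a threshold of 0.05. Errors are SD for CPM and SE for log2 fold changes. Alternatives were DESeq2 1.42.0 and its scaling, no filter, removal of each library's trend in GC content and length (spline, 4 degrees of freedom), a replicate block, limma on the authors' log2 values, and leaving out each library. Python 3.11.15 with pandas 2.3.3, scipy 1.17.1 and matplotlib 3.10.9 made the summaries. The main edgeR fit was tested on simulated counts with known changes in a single group. That simulation held no trend in GC content or length, and the alternatives were not tested on it.

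The members, the gene lists and the tests were chosen with earlier results of these data known, and 2 comparisons between treatments were added after seeing the data. Every member is named. Of the other pathway genes the plan was to name up to 4 called genes a list, those with the smallest p-values. The core and glucocorticoid lists have more, and some genes were named for a role beside a member. Genes named outside the plan were chosen after their values were seen. For likeness the 4 genes with the highest Pearson r were named, using a pseudocount of 0.5 CPM.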

Additional observations from a re-analysis of the deposited data

Results flagged for a closer look

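Of 60 groups of 4 libraries (10 members in 6 groups), 6 held a library that stood far from the other 3 by Dixon's ratio, where chance gives about 1 in 20. Eif4ebp1 was 244 CPM in Notch2-mKO-Unloading replicate 4, with the others at 72.6 to 88.6 CPM, and Deptor was 13.1 CPM in the same library, with the others at 26.8 to 27.9 CPM. Ddit4l was 159 CPM in Notch2-mKO-Diabetes replicate 4, against 208 to 215 CPM in the others. Sesn2 was 2.74 CPM in WT-Unloading replicate 1, the library with the highest Eif4ebp1 of its group, against 1.27 to 1.52 CPM. Sesn3 was 3.62 CPM in Notch2-mKO-Control replicate 1, with the others at 2.88 to 3 CPM. Rps6kb1 was 23.0 CPM in WT-Unloading replicate 3, against 26.4 to 27.0 CPM.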

How the results depend on the processing

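The number of called members was 3 in WT-Unloading and 1 when limma was run on the authors' log2 values, 2 to 3 without 1 library. In Notch2-mKO-Unloading it was 2, and 1 with the GC and length trend removed, 1 with a replicate block, 1 with both, 0 with limma, and 0 to 2 without 1 library. In WT-Diabetes it was 5, and 3 with the trend removed, with block and trend, and with limma, and 3 to 5 without 1 library. In Notch2-mKO-Diabetes it was 1, and 0 with the trend removed or with block and trend, 2 with limma, and 0 to 1 without 1 library. Between treatments in WT mice it was 1, 3 with DESeq2 (Sesn1 and Deptor added) and 1 to 2 without 1 library, and for the difference in unloading response 0, and 0 to 1 without 1 library. Limma on the authors' log2 values called 2831 genes higher and 630 lower in WT-Unloading (2395 and 2127 with edgeR), 0 and 1 in Notch2-mKO-Unloading (536 and 418), 2357 and 405 in WT-Diabetes (2327 and 2027) and 990 and 262 in Notch2-mKO-Diabetes (398 and 332). Limma was run on the treated and control libraries of each comparison alone, whereas edgeR fitted all 24 libraries together, so these counts differ in the libraries used too. DESeq2 called 1455 genes in Notch2-mKO-Unloading, against 954 with edgeR, and the cause of these differences was not tested. In Notch2-mKO-Diabetes the replicate block called 488 genes and the block with the trend removed 449, against 730.

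The labels number replicates alike in every group. Deviations of same-numbered libraries from their group means correlated at -0.206 to 0.326. Between the control groups of the genotypes the mean was 0.112 for same-numbered and -0.037 for other pairs. In the remaining comparisons the same-numbered mean lay between -0.0406 and 0.0408. The block was kept as an alternative. It ended the call of Eif4ebp1 in Notch2-mKO-Unloading (adjusted p = 0.0736).

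Values that changed sign lay between -0.35 and 0.26 and none was called. With the trend removed this held for differences in response too, with Rps6kb1 in diabetes at 0.15 (-0.32 before) and, after unloading, Ddit4 at -0.11 (0.18), Deptor at 0.24 (-0.06) and Sesn3 at 0.10 (-0.18), and for smaller values between genotypes within a condition. In WT-Unloading these were, with the trend removed and with block and trend, Ddit4l at -0.10 and -0.11, Sesn2 at 0.26 and 0.23, Sesn3 at -0.065 and -0.072, and Deptor at -0.34 and -0.35, and, in limma, Sesn2 at 0.16 and Tsc2 at 0.047. In Notch2-mKO-Unloading Deptor was 0.057 with limma. In WT-Diabetes Ddit4l was -0.0016 with DESeq2's scaling, -0.0015 with DESeq2, -0.14 with the trend removed and -0.15 with block and trend. Sesn3 was -0.17 and -0.18 in those last settings, and Tsc1 was -0.0030, -0.0029 and -0.00029 with DESeq2's scaling, DESeq2 and the replicate block. Sesn2 was -0.0078 with the block, and Tsc2 0.078 with limma. In Notch2-mKO-Diabetes Sesn2 was 0.057, 0.062 and 0.029 with the trend removed, block and trend, and limma. Without 1 library, ranges that crossed 0 in WT-Unloading were -0.10 to 0.14 for Ddit4l, -0.36 to 0.077 for Sesn2 and -0.18 to 0.22 for Deptor. In Notch2-mKO-Unloading they were -0.012 to 0.34 for Sesn1, -0.027 to 0.20 for Sesn3 and -0.11 to 0.18 for Deptor. In WT-Diabetes they were -0.14 to 0.10 for Ddit4l, -0.097 to 0.13 for Sesn2 and -0.088 to 0.066 for Tsc1. In Notch2-mKO-Diabetes they were -0.22 to 0.045 for Sesn2, -0.021 to 0.094 for Tsc1 and -0.062 to 0.13 for Tsc2.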
